A study of Mus musculus with 18 samples.

Results

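Blood stem and progenitor cells from the bone marrow of mice with the K9M form of histone H3 were compared with the same cells of WT mice. The comparison took in 4 of the 18 RNA-seq libraries of the series, 2 of K9M (mice K9M.1362 and K9M.1363) and 2 of WT (mice WT.1262 and WT.1266), and every gene ID of their count files. The series measured polyadenylated RNA of the genotypes K9M, K36M and WT (labelled wildtype) in marrow progenitors, intestine and testes, with 2 libraries in each of 9 groups. In K9M lysine 9 of histone H3 is replaced by methionine, and in K36M lysine 36. All mice were of a C57B6/129 hybrid strain, were used at an age of 6 to 8 weeks with both sexes in the study, and received 2 mg/ml doxycycline in their water to induce the histone, WT mice included. Marrow cells were taken by their surface as negative for lineage markers and positive for the receptor cKit. Intestine and testes were dissociated cells of 6 other mice, 2 per genotype, each of which gave both tissues. The labels do not give the promoter of the mutant histone, the share of cells that made it, the length of induction, or whether the control mice carried a transgene with an unmutated H3.

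Methyl groups on lysine 9 of histone H3 (H3K9) mark silent chromatin. Enzymes such as Suv39h1, Suv39h2, Setdb1, Ehmt1 and Ehmt2 write them, HP1 proteins bind them, and Kdm3 and Kdm4 enzymes remove them, and the mark is known to keep repeats, germline genes and genes of other cell lineages silent. A histone with methionine in place of this lysine is known to block the enzymes that methylate H3K9 on the other copies of H3. Progenitors that carry cKit and lack lineage markers include blood stem cells and the early precursors of myeloid, erythroid, megakaryocytic and lymphoid cells.

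Gene counts summed to 17114164 and 20621019 in the K9M libraries and to 21318781 and 21417915 in the WT libraries. Values below are CPM, gene counts scaled to a common library total with TMM factors, given for both mice of each group, and log2 fold changes of K9M over WT ± SE. "Rose" and "fell" are used of genes whose Benjamini-Hochberg adjusted p, over all genes tested, was under 0.05 in the quasi-likelihood test of edgeR. That held for 147 of 14604 genes, or 1.01%, with 86 higher in K9M (0.589%) and 61 lower (0.418%). Of the 147, 109 changed at least 2-fold and 63 at least 4-fold. At an unadjusted p under 0.05 stood 2079 genes (14.2%), 1129 higher (7.73%) and 950 lower (6.51%), and the median log2 fold change of all tested genes was -0.0019. K36M progenitors, fitted with them against the same WT libraries, differed from WT in 7017 genes (48.0%). Both K9M libraries lay above or below both WT libraries in 6702 genes (45.9%), among them all 147. The gene of the sorted receptor, Kit, stood at 499.7 and 492 CPM in K9M and 436 and 457 CPM in WT, a log2 fold change of 0.15 ± 0.06 that did not pass (adjusted p = 0.276). Xist, made by the inactive X chromosome, was high in all 4 libraries, at 2838 and 3388 CPM in K9M and 2719.9 and 2541 CPM in WT. Because the libraries are bulk RNA, fewer cells of a type and less RNA per cell cannot be told apart in any value below.

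The enzymes of H3K9 methylation were themselves close to their WT levels. None of 11 tested methyltransferases and their cofactors, 10 demethylases and 26 readers and heterochromatin proteins passed the test, with median log2 fold changes of 0.04, 0.06 and 0.04. At an unadjusted p under 0.05 by edgeR stood 1 methyltransferase cofactor, 0 demethylases and 2 readers, all higher in K9M. DESeq2 and limma-voom likewise called 0 of the 11 methyltransferase genes, whereas edgeR with no filter on low counts called 1, Atf7ip, higher. Setdb1, which trimethylates H3K9 at repeats, had 143 and 152 CPM in K9M and 151 and 162 CPM in WT. Ehmt2, also known as G9a, had 241 and 248 CPM in K9M and 243 and 227 CPM in WT. Suv39h1, a methyltransferase of heterochromatin, had 119 and 126 CPM in K9M and 125 and 124 CPM in WT. In each of these 3 the mice of both genotypes overlapped. The cofactor was Atf7ip, a partner of Setdb1, at 169 and 168 CPM in K9M and 138 and 137 CPM in WT (log2 0.29 ± 0.07, adjusted p = 0.144). Trim28, the corepressor that recruits Setdb1, stood at 619.8 and 651 CPM in K9M and 636 and 654 CPM in WT. Among 12 tested H3 genes and H3 chaperones, H3f3a fell, and it was the only call. H3f3a encodes histone H3.3 and had 124 and 135 CPM in K9M against 208 and 182 CPM in WT (log2 -0.59 ± 0.09, adjusted p = 0.0321). It did not pass with all 18 libraries, with the K9M and WT libraries alone, with no robust estimation, or without any 1 of the K9M and K36M libraries. H3f3b, which encodes the same protein, had 493 and 452 CPM in K9M and 484 and 479 CPM in WT (log2 -0.03 ± 0.06). Whether reads of an introduced H3 gene are counted under any H3 gene was not tested.

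Of the 30 gene lists read here, that of MHC class II antigen presentation had the most falls. MHC class II molecules, pairs of an alpha and a beta chain guided by the invariant chain, show peptides to CD4 T cells, and the coactivator Ciita switches their genes on together with RFX and NF-Y factors that bind the promoters. Of 24 tested genes of the pathway 6 fell and none rose, beside 0.418% and 0.589% of all genes. H2-Eb1 and Ifi30, 2 of the 6, passed with all 18 libraries in the fit. H2-Aa, an alpha chain, had 4.14 and 3.44 CPM in K9M against 29.3 and 38.6 CPM in WT, a log2 fold change of -3.17 ± 0.22 (adjusted p = 6.80e-04). H2-Eb1, a beta chain, had 3.68 and 2.39 CPM in K9M against 17.1 and 26.8 CPM in WT (-2.86 ± 0.38, adjusted p = 0.02601). H2-Ab1, the beta chain that pairs with H2-Aa, had 17.7 and 14.6 CPM in K9M against 30.5 and 42.9 CPM in WT (-1.19 ± 0.18, adjusted p = 0.0275). These 3 genes lie side by side among the tested genes of chromosome 17, and in each the K9M mice lay well under both WT mice. Cd74, the invariant chain, had 13.6 and 9.18 CPM in K9M against 56.8 and 80.3 CPM in WT (-2.60 ± 0.25, adjusted p = 0.0112). Ciita itself had 1.67 and 1.39 CPM in K9M against 5.11 and 7.45 CPM in WT (-2.04 ± 0.29, adjusted p = 0.0195). Ifi30, a reductase that opens disulfide bonds of antigens in lysosomes, had 20.9 and 18.3 CPM in K9M against 39.7 and 42.4 CPM in WT (-1.07 ± 0.09, adjusted p = 0.00228). Cd74, Ciita and Ifi30 lie on chromosomes 18, 16 and 8.

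The rest of the pathway did not pass the test, and the list's median log2 fold change was -0.11. H2-DMa, a chain of the complex that loads peptides, had 57.5 and 62.1 CPM in K9M and 63.5 and 53.8 CPM in WT (0.03 ± 0.10), and its partner H2-DMb1 had 17.999 and 21.1 CPM in K9M and 23.7 and 18.7 CPM in WT (-0.11 ± 0.16). The promoter factor gene Rfx5 had 38.99 and 39.02 CPM in K9M and 35.98 and 34.4 CPM in WT (0.15 ± 0.09), and Nfya, a chain of NF-Y, had 278 and 291 CPM in K9M and 275 and 256 CPM in WT (0.10 ± 0.08). March1, a ubiquitin ligase that removes class II from the surface, had 2.703 and 1.58 CPM in K9M and 5.301 and 4.83 CPM in WT (unadjusted p = 0.00297, adjusted p = 0.127). H2-Ob, a chain of the complex that restrains loading, had 26.97 and 45.4 CPM in K9M and 24.6 and 25.6 CPM in WT. H2-Eb2 was scarce, with 0.9201 and 1.05 CPM in K9M and 0.141 and 0.322 CPM in WT. The last 2 had log2 fold changes above 0, and neither passed (adjusted p = 0.399 and 0.182).

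**Figure D1:**
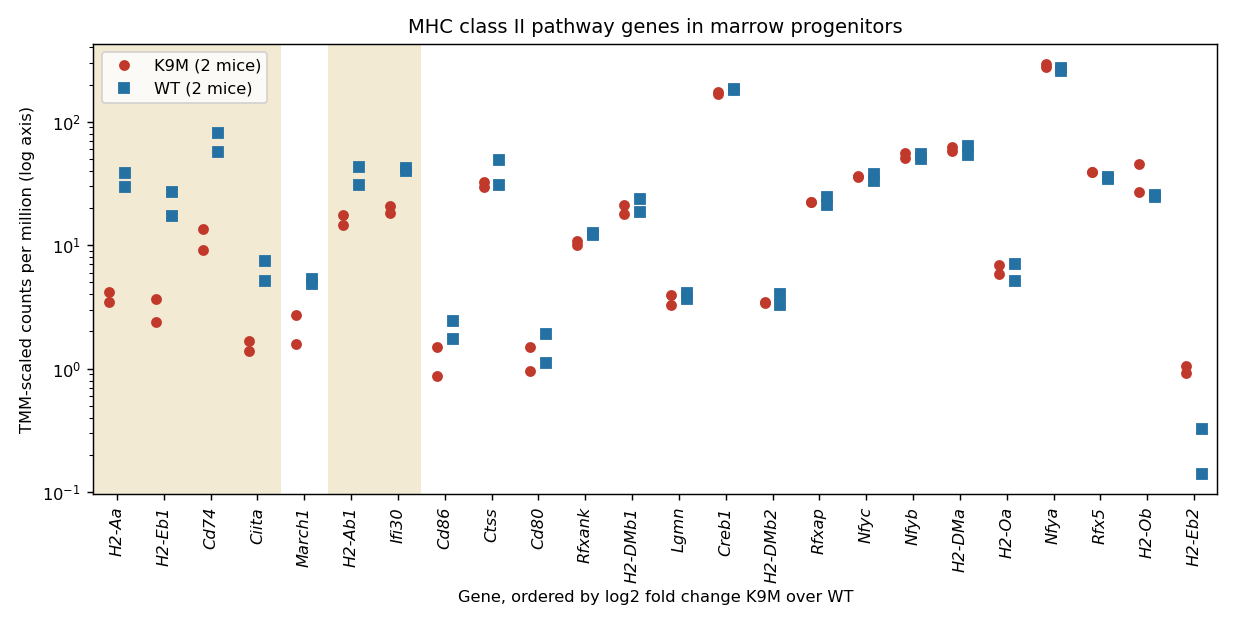
TMM-scaled CPM on a log axis of the 24 tested MHC class II pathway genes in 2 K9M and 2 WT marrow progenitor libraries, 1 point per mouse, with the 6 called genes shaded. In the shaded genes both K9M points lie under both WT points, as for H2-Aa at 4.14 and 3.44 CPM in K9M against 29.3 and 38.6 CPM in WT. The genotypes also lay apart, in one direction or the other, in all 147 called genes.

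The promoters of H2-Aa and H2-Eb1 are shown because these genes fell together and a shared promoter element is known for the family. The 100 bases before each start site are from RefSeq on GRCm38.p6, 5′ to 3′ on the gene's strand, with capitals for the Y box letters CTGATTGG, the form bound by NF-Y.
H2-Aa (chr17:34287824-34287923, minus strand): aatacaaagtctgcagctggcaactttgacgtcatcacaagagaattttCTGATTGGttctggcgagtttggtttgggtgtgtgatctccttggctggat
H2-Eb1 (chr17:34305767-34305866, plus strand): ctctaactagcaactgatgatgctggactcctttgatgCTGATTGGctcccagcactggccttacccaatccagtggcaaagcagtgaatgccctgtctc
The 8 letters begin 51 bases before the start of H2-Aa and 62 bases before that of H2-Eb1. Searched on both strands in the 250 bases before the start, they occurred in 1258 of 32851 promoters of the RefSeq table, or 3.83%. Of the 24 tested pathway genes 18 had a promoter in the table, while H2-Ab1 had none there and was not searched. Of the 18, 4 held the letters. The other two were H2-Oa and H2-Eb2, neither of which passed the test.

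Class II genes are made by dendritic cells, macrophages and B cells. Markers of monocytes, macrophages and dendritic cells were read beside them here, and B lymphoid genes are given further below. Of 47 tested monocyte, macrophage and dendritic cell genes 2 fell and none rose, beside 0.418% and 0.589% of all genes, and the list median was -0.05. By unadjusted p under 0.05, 12 were lower and 4 higher, beside 6.51% and 7.73% of all genes. Their summed level was 4349 and 4697 CPM in K9M and 5163 and 3843 CPM in WT, so the groups overlapped. The 2 that fell were Fn1 and Klf4. Fn1, which encodes fibronectin, had 3.22 and 1.05 CPM in K9M against 26.6 and 29.02 CPM in WT (-3.73 ± 0.43, adjusted p = 0.0225). Klf4, a transcription factor of monocytes, had 11.4 and 12.8 CPM in K9M against 41.5 and 30.3 CPM in WT (-1.57 ± 0.22, adjusted p = 0.0244). None of the dendritic cell genes of this list that are named here passed, and they were chosen after their values were seen. In Itgax, Clec9a, Xcr1, Batf3, Id2, Zbtb46 and Bst2 both K9M mice were under both WT mice. Batf3 was scarce, with 0.0575 and 0.0478 CPM in K9M and 0.657 and 0.69 CPM in WT (adjusted p = 0.102). Id2 had 7.30 and 8.42 CPM in K9M and 18.3 and 13.7 CPM in WT (adjusted p = 0.111). The genes with both K9M mice above both WT mice, Flt3 and Tcf4, belong to precursors and to plasmacytoid dendritic cells. In Siglech and Irf8 the genotypes overlapped. Itgax, the CD11c integrin, had 4.26 and 4.88 CPM in K9M and 8.96 and 8.51 CPM in WT (adjusted p = 0.0744), and Clec9a, a receptor of cross-presenting cells, 5.29 and 3.87 CPM in K9M and 8.63 and 7.17 CPM in WT (adjusted p = 0.195). Xcr1, a chemokine receptor of the same cells, had 0.115 and 0.478 CPM in K9M and 0.985 and 1.93 CPM in WT (adjusted p = 0.187). On the other side, Flt3, a cytokine receptor of dendritic cell and lymphoid precursors, had 165 and 235 CPM in K9M and 130.5 and 121 CPM in WT (adjusted p = 0.257). Tcf4, a factor of plasmacytoid dendritic cells, had 137 and 153 CPM in K9M and 106 and 82.9 CPM in WT (adjusted p = 0.0857), and Siglech, a receptor of the same cells, 2.93 and 5.98 CPM in K9M and 2.67 and 3.68 CPM in WT. Irf8, a factor of monocytes and dendritic cells, had 346 and 377 CPM in K9M and 403 and 282 CPM in WT. The part of such cells in the fall of class II genes was not tested. None of the 47 was at 0 in both libraries of either genotype.

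Of 20 tested MHC class I pathway genes, H2-Q6 and H2-Q7 fell and none rose, beside 0.418% and 0.589% of all genes, with a list median of -0.09. Neither passed with all 18 libraries in the fit. H2-Q7, a non-classical class I gene, had 67.7 and 63.03 CPM in K9M against 112 and 105 CPM in WT (-0.73 ± 0.08, adjusted p = 0.00674). H2-Q6, its neighbour and near copy, had 77.8 and 83.1 CPM in K9M against 137 and 123 CPM in WT (-0.69 ± 0.10, adjusted p = 0.01899), and reads of the pair may have been divided between them. The classical genes H2-K1 and H2-D1 overlapped between the genotypes, H2-K1 at 861 and 858 CPM in K9M and 1022 and 807 CPM in WT and H2-D1 at 728 and 729 CPM in K9M and 903 and 713 CPM in WT.

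Some genes were present in one genotype and nearly absent from the other. Of the 147 calls, 5 had no WT count and 3 had no K9M count, and a further 4 had 1 to 3 counts in WT and 2 had 1 to 3 counts in K9M. Ccnb1ip1, a gene of meiotic crossover formation, had 156 and 185 counts in K9M and 0 in both WT mice, and against a floor of 3 counts over the WT group it was at least 128-fold higher in K9M (adjusted p = 0.00222). Tdrd5, which silences transposons in male germ cells, had 24 and 29 counts in K9M and 0 in WT, at least 19.9-fold higher in K9M by the same floor (adjusted p = 0.0308). Stag3, the cohesin subunit of meiotic chromosomes, was present in both genotypes, with 21.8 and 28.3 CPM in K9M against 10.5 and 10.3 CPM in WT (1.27 ± 0.17, adjusted p = 0.0157). All 3 are genes of the germ line. Other called genes at 0 in WT are not, such as the cell polarity gene Pard3, with 29 counts in K9M, and the pseudogene Rps15a-ps8, with 156. Tdrd5, Pard3 and Rps15a-ps8 were picked after their values were seen.

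Other germline genes were mostly silent in all 4 libraries. Of 34 germline and early embryo genes listed as silenced through H3K9 methylation, 31 were in the files and 6 passed the filter on low counts, Stag3 being the 1 that rose. A count over genes that passed the filter gives no support by itself, since a gene silent in WT passes only through K9M or K36M libraries. Of the others, Ddx4, an RNA helicase of germ cells, had 4.198 and 4.304 CPM in K9M and 2.02 and 2.805 CPM in WT (adjusted p = 0.208). Sycp1, of the synaptonemal complex, went the other way with 0 and 0.0478 CPM in K9M and 2.63 and 3.03 CPM in WT, and did not pass either (adjusted p = 0.288).

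Several of the largest falls came from 1 stretch of chromosome 11. St6galnac2, Gm11735, BC018473 and St6galnac1 follow each other among the tested genes there, and all 4 fell. St6galnac1, an enzyme that adds sialic acid to O-linked sugar chains, had 0 counts in K9M and 288 and 300 counts in WT, at least 174-fold lower in K9M (adjusted p = 7.74e-04). St6galnac2, of the same enzyme family, had 0.518 and 0.622 CPM in K9M against 10.5 and 10.5 CPM in WT (-4.18 ± 0.25, adjusted p = 2.97e-04). BC018473, annotated as an antisense RNA, had 1 and 0 counts in K9M and 4738 and 4136 counts in WT, a WT over K9M ratio of 7892 (counting interval 1416 to 311750, adjusted p = 7.08e-07). Gm11735, a pseudogene at 97.98% identity to St6galnac1, had 0 counts in K9M and 75 and 76 counts in WT. K36M progenitors were also low, at 0 and 1 counts of BC018473 and 0 and 0 of St6galnac1. Whether counting used strand is not given, so overlapping RNAs of this stretch cannot be told apart. Of 16 tested sialyltransferase genes the 2 neighbours fell, beside 0.418% of all genes. The list median was -0.01, and the related St6galnac4 had 69.7 and 74.1 CPM in K9M and 66.4 and 64.1 CPM in WT.

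Some called genes were neighbours. Of 139 called genes with a place in the annotation, 28 stood in 12 blocks in which called genes were within 5 tested genes of each other. Some blocks hold uncalled genes or calls of both directions, as for Pou6f1, which rose, and Cela1, which fell, and the number of blocks was not tested. One pair was Akr1c12 and Akr1c13 of chromosome 13, aldo-keto reductases that act on steroids and other carbonyls. Akr1c12 rose to 9.14 and 9.47 CPM in K9M, against 0.938 and 0.966 CPM in WT (3.28 ± 0.22, adjusted p = 5.16e-04). Akr1c13, named after its values were seen, rose to 34.6 and 35.8 CPM in K9M, against 14.4 and 14.3 CPM in WT (1.29 ± 0.10, adjusted p = 0.00115). Chromosome 17 held 13 calls among 712 tested genes, or 1.83%, 5 of them the class II and class I genes above.

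Other large rises were those of Gdpd3, Camk2b, Olfm4, Afp, Fah and Slc16a11. Gdpd3, a phospholipase of lysophospholipids, had 14.4 and 21.04 CPM in K9M against 1.55 and 2.44 CPM in WT (3.15 ± 0.30, adjusted p = 0.00371). Camk2b, a calcium-dependent kinase of neurons, had 4.14 and 3.68 CPM in K9M against 0.6098 and 0.276 CPM in WT (3.13 ± 0.38, adjusted p = 0.0112). Olfm4, a secreted protein of intestinal crypts and neutrophil granules, had 19.2 and 14.7 CPM in K9M against 2.81 and 2.21 CPM in WT (2.75 ± 0.41, adjusted p = 0.04404). It did not pass by limma-voom, with no filter on low counts, or with all 18 libraries in the fit. Afp and Fah are liver genes, for the fetal plasma protein alpha-fetoprotein and for the last enzyme of tyrosine breakdown. Afp had 5.06 and 8.13 CPM in K9M against 1.08 and 1.38 CPM in WT (2.42 ± 0.34, adjusted p = 0.0199), and Fah had 5.81 and 5.88 CPM in K9M against 0.938 and 1.24 CPM in WT (2.42 ± 0.29, adjusted p = 0.0107). Slc16a11, of the monocarboxylate transporter family, had 5.35 and 3.92 CPM in K9M against 0.844 and 1.104 CPM in WT (2.24 ± 0.34, adjusted p = 0.0275).

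The remaining large falls were Ugt8a, Nags and Tbc1d9. Ugt8a, which makes the galactolipid of myelin, had 0.345 and 0.191 CPM in K9M against 2.299 and 2.85 CPM in WT (-3.26 ± 0.56, adjusted p = 0.0443). It did not pass by limma-voom or with no robust estimation. Nags, the enzyme that makes the activator of the urea cycle, had 0.173 and 0.287 CPM in K9M against 1.64 and 2.58 CPM in WT (-3.14 ± 0.41, adjusted p = 0.0146), with 11.6 and 15.1 CPM in K36M. Tbc1d9, of a family that acts on Rab GTPases, had 1.27 and 1.24 CPM in K9M against 5.82 and 6.71 CPM in WT (-2.32 ± 0.25, adjusted p = 0.00674). Nags was thus low in K9M and high in K36M relative to WT, whereas Tbc1d9 was low in both, with 0.793 and 0.721 CPM in K36M.

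Several called genes were pseudogenes, many of which are copies of spliced mRNAs pasted back into the genome. Of 537 tested pseudogenes 18 were called, or 3.35%, beside 116 of 12724 protein-coding genes, or 0.912%, and the difference of these shares was not tested. Of 24 called pseudogenes and predicted genes, 17 matched a protein-coding gene with at least 90% identity over at least 80% of their length by BLASTN. Rps3a3, a copy of the ribosomal protein gene Rps3a1, had 196 and 185 CPM in K9M against 2.91 and 2.67 CPM in WT (6.09 ± 0.10, adjusted p = 8.63e-08). A second copy, Rps3a2, had 14.6 and 14.2 CPM in K9M against 2.58 and 1.84 CPM in WT (2.70 ± 0.25, adjusted p = 0.00294). Rps3a1 itself fell, with 592 and 578 CPM in K9M against 939.9 and 912 CPM in WT (-0.66 ± 0.05, adjusted p = 9.50e-04).

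How little separates the copies is shown by 90 bases of the coding sequence, positions 579 to 668 of 795 from the start codon of Rps3a1, the stretch with the most differences. They come from GENCODE M21 transcripts, 5′ to 3′. Capitals mark the bases of a copy that differ from Rps3a1, and in Rps3a1 each position at which either copy differs.
Rps3a1 (chromosome 3): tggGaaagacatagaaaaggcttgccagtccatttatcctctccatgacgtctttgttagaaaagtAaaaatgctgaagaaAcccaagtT
Rps3a3 (chromosome 13): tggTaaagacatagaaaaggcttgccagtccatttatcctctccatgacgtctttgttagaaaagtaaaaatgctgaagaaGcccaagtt
Rps3a2 (chromosome 14): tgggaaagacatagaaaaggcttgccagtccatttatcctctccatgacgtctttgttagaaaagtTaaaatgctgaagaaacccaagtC
Over the whole copy, Rps3a3 differed from the coding sequence at 9 positions and Rps3a2 at 4. A short read can therefore fit more than 1 of these genes, and their values are uncertain.

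Where a parent also passed, it mostly did so in the direction opposite to its copy. Rps3a1 fell while Rps3a2 and Rps3a3 rose, and Rplp0, Atp6v0c and Ahcy rose while their copies fell, whereas St6galnac1 fell with Gm11735. The other parents did not pass, among them Rps13 (adjusted p = 0.265). With all 18 libraries in the fit Rps3a1, Rplp0, Atp6v0c and Ahcy did not pass either. With the K9M and WT libraries alone Rplp0, Atp6v0c and Ahcy did not pass, and Atp6v0c did not pass by limma-voom. With the reads of a parent and its called copies added, the sum of the Rps3a1 family was 803.2 and 777.9 CPM in K9M and 945.4 and 916.7 CPM in WT, a log2 ratio of -0.24 beside -0.66 for Rps3a1 alone. For Rps13 the sum was 407.8 and 401.4 CPM in K9M and 400.8 and 385.7 CPM in WT. Its copy Rps13-ps1, 99.62% identical, had 54.2 and 52.99 CPM in K9M against 0.281 and 0.322 CPM in WT (7.44 ± 0.18, adjusted p = 7.08e-07). Rpl3-ps1, a copy of the ribosomal gene Rpl3, rose to 53.3 and 52.3 CPM in K9M, against 6.24 and 6.71 CPM in WT (3.03 ± 0.12, adjusted p = 1.38e-05), while Rpl3 had 909 and 897 CPM in K9M and 1088 and 1057 CPM in WT (adjusted p = 0.0723).

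The mirror image was seen where copies were present in WT. Rplp0, a protein of the ribosomal stalk, rose to 1820.5 and 1726 CPM in K9M, against 1411 and 1429 CPM in WT (0.32 ± 0.05, adjusted p = 0.02302). Its copies Gm8730, Gm14165 and Rplp0-ps1 fell. Gm8730 had 4.26 and 4.26 CPM in K9M against 134 and 138 CPM in WT (-4.996 ± 0.09, adjusted p = 1.59e-07), Gm14165 had 0.978 and 0.239 CPM in K9M against 26.4 and 27.3 CPM in WT, and Rplp0-ps1 had 0.115 and 0.143 CPM in K9M against 9.15 and 9.33 CPM in WT (-6.08 ± 0.37). The family sum was 1826 and 1730.1 CPM in K9M and 1579.8 and 1604 CPM in WT, a log2 ratio of 0.16 beside 0.32 for Rplp0 alone. Atp6v0c, a subunit of the proton pump of lysosomes, rose to 76.2 and 75.99 CPM in K9M, against 58.8 and 57.98 CPM in WT (0.38 ± 0.07, adjusted p = 0.0448). Its copy Atp6v0c-ps2 had 0.518 and 0.622 CPM in K9M against 19.4 and 17.9 CPM in WT (-5.01 ± 0.30, adjusted p = 2.97e-04), and the sum was 76.7 and 76.6 CPM in K9M and 78.2 and 75.9 CPM in WT. Ahcy, which breaks down S-adenosylhomocysteine, the product of methylation reactions, rose to 94.7 and 94.6 CPM in K9M, against 63.9 and 70.6 CPM in WT (adjusted p = 0.0321). With its copy Gm4737, at 0.633 and 1.05 CPM in K9M against 20.7 and 22.2 CPM in WT, the sum was 95.3 and 95.7 CPM in K9M and 84.7 and 92.8 CPM in WT. The rises of Rplp0, Atp6v0c and Ahcy and the fall of Rps3a1 were smaller in size, or near 0 for Atp6v0c, once the copies were counted in. No test was run on the sums. Of 77 tested cytosolic ribosomal protein genes, Rplp0 and Rps3a1 were the only calls, with a list median of -0.08. The parents and the copies Gm8730, Gm14165 and Gm4737 were named after their values were seen.

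**Figure D2:**
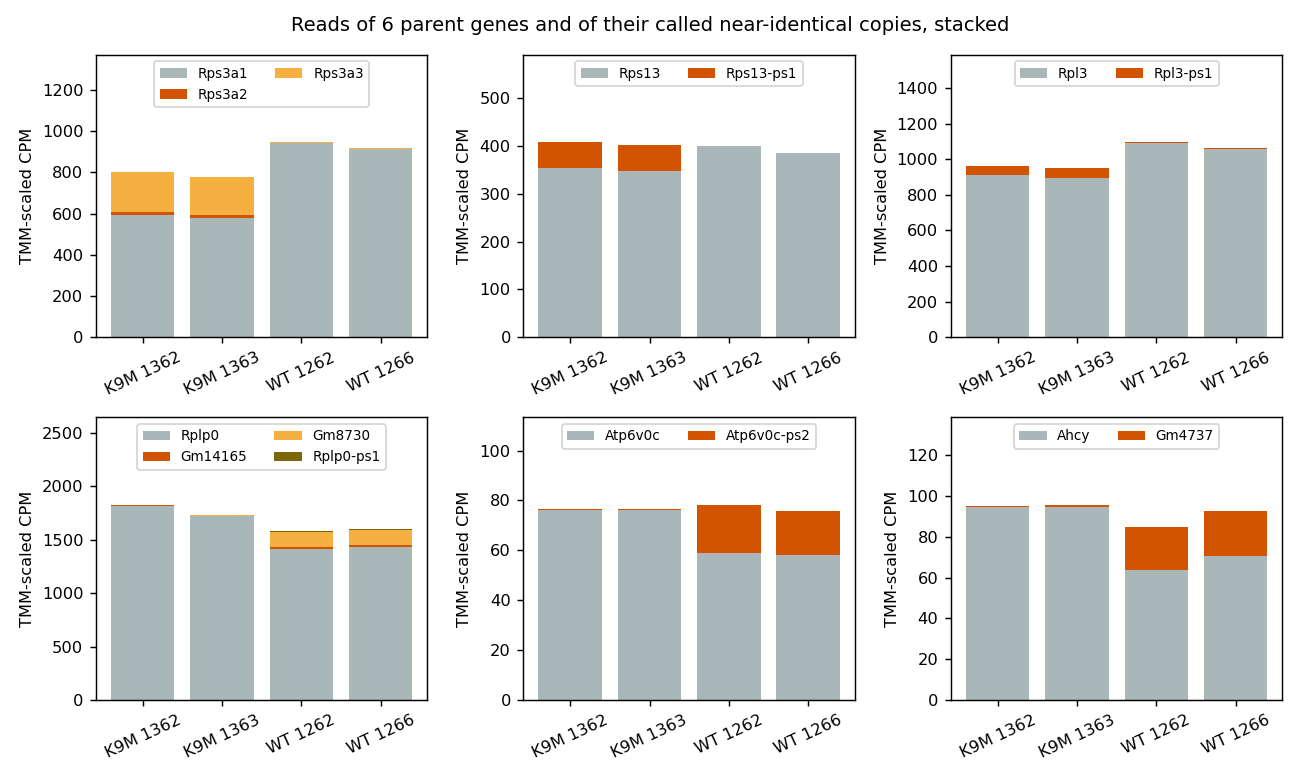
Stacked bars of TMM-scaled CPM, starting at 0, for 6 parent genes (grey) and their called near-identical copies (coloured) in 2 K9M and 2 WT libraries. Copies of Rps3a1, Rps13 and Rpl3 add to the K9M bars and copies of Rplp0, Atp6v0c and Ahcy to the WT bars, with the Atp6v0c sums between 75.9 and 78.2 CPM in all 4.

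In the other tissues, several of these RNAs went with the mouse. In K9M.1516 Rps3a3 had 345 counts in intestine and 265 in testes, and in K9M.1519 it had 15 and 12. WT mice had 9 and 7 counts in intestine and 1 and 4 in testes. Rps3a3 was thus high in both tissues of 1 of 2 K9M mice. Rps13-ps1 was high in both K9M mice, with 199 and 157 counts in K9M intestine against 1 and 0 in WT intestine, and 532 and 285 in K9M testes against 1 and 3 in WT testes. Of all genes tested there, 1.56% were called between K9M and WT in intestine and 0.0872% in testes. The effect on Rps13-ps1 passed in both tissues, at 8.21 ± 0.43 in intestine (adjusted p = 9.19e-05) and 7.42 ± 0.47 in testes (adjusted p = 3.41e-05). Rps15a-ps8, a copy of Rps15a named after its values were seen, had 64 and 92 counts in K9M marrow and 0 in WT. It had 22 and 15 counts in K9M intestine against 2 and 0 in WT intestine, and 43 and 34 in K9M testes against 0 and 0 in WT testes, and passed in neither (adjusted p = 0.0956 and 0.0576).

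Among the RNAs low in K9M, the Rplp0 copies kept the pattern by genotype. Gm8730 had 3 and 6 counts in K9M intestine against 426 and 172 in WT intestine, and 35 and 16 in K9M testes against 473 and 619 in WT testes, and fell in both (adjusted p = 3.06e-04 and 1.82e-05). K36M mice were as low as K9M, with 67 and 64 counts in marrow, 7 and 17 in intestine and 14 and 24 in testes. BC018473 split the WT mice, at 118 counts in intestine and 19 in testes of WT.1477 and at 15 and 1 in WT.1476. Atp6v0c-ps2 and Gm4737 were high in WT marrow alone, with 6 and 8 counts of Atp6v0c-ps2 and 9 and 9 counts of Gm4737 in WT intestine. Which strain's allele a mouse of this hybrid background carried at each of these places was not analysed here, and with 2 mice per genotype a difference that goes with the mouse and one that goes with the histone cannot be told apart at a single locus.

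**Figure D3:**
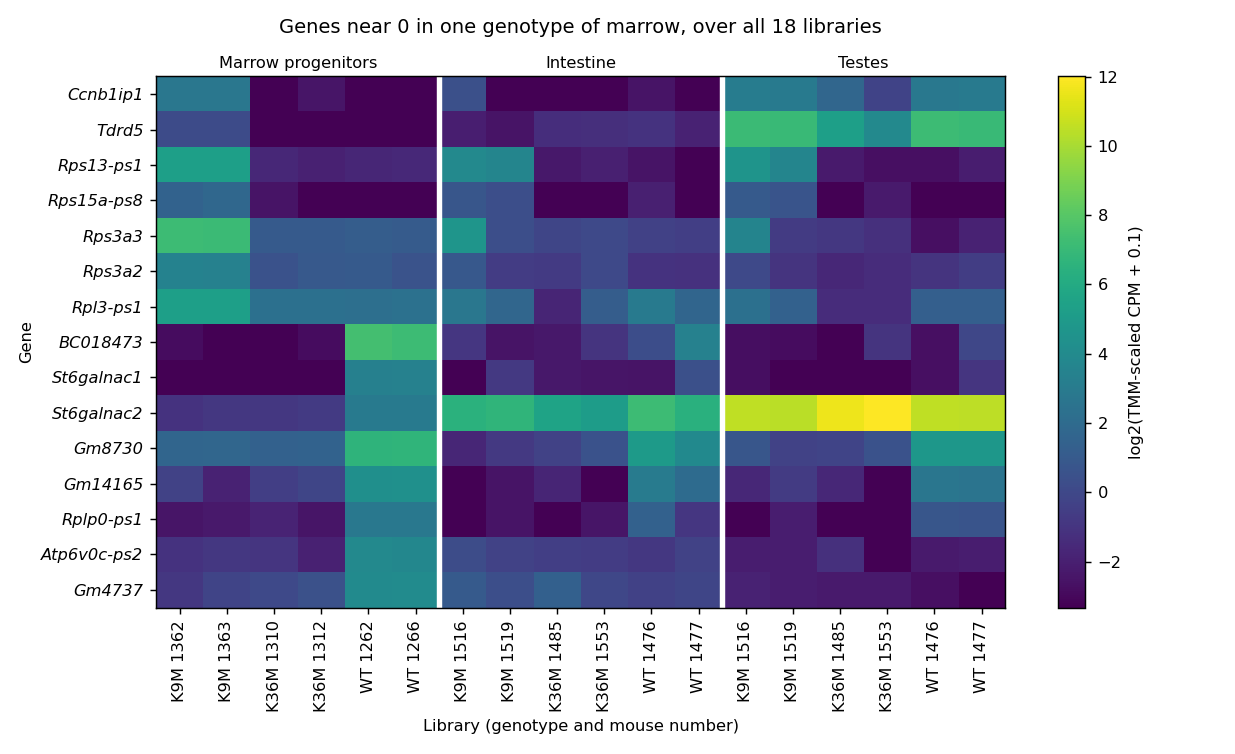
Heat map of log2(TMM-scaled CPM + 0.1) of 15 genes that were near 0 in 1 genotype of marrow progenitors, over all 18 libraries ordered by tissue and genotype. Rps13-ps1 is high in all 6 K9M libraries, Rps3a3 in the K9M marrow libraries and K9M.1516, and Gm8730 in the 6 WT libraries.

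Genes named Zfp with a number, many of which encode repressors that bring Trim28 and Setdb1 to DNA, were grouped after their values were seen. Of 340 tested, 5 rose and none fell, beside 0.589% and 0.418% of all genes, and nothing is read from a group formed in this way. Of the 340, 230 had a log2 fold change above 0, with a median of 0.07. Zfp951 had 7.303 and 6.79 CPM in K9M against 1.13 and 2.12 CPM in WT (2.11 ± 0.35, adjusted p = 0.03501). Zfp992 had 13.5 and 12.4 CPM in K9M against 4.41 and 6.16 CPM in WT (1.29 ± 0.19, adjusted p = 0.0254). Zfp868, Zfp518a and Zfp53 rose less, by log2 0.77 ± 0.09, 0.71 ± 0.09 and 0.70 ± 0.11.

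Some genes of blood stem cells rose in K9M. Of 36 tested, Cd34, Sox4 and Hlf rose and none fell, beside 0.589% and 0.418% of all genes, with a list median of 0.11. At an unadjusted p under 0.05 by edgeR, 10 were higher and 2 lower, beside 7.73% and 6.51% of all genes. Cd34, a surface marker of progenitors, had 413 and 445 CPM in K9M against 321 and 272 CPM in WT (0.53 ± 0.09, adjusted p = 0.0344). Sox4, a transcription factor of early lymphoid and stem cells, had 83.8 and 81.3 CPM in K9M against 54.5 and 47.2 CPM in WT (0.70 ± 0.09, adjusted p = 0.0138). Hlf, a transcription factor that marks stem cells, had 53.8 and 67.6 CPM in K9M against 34.8 and 39.3 CPM in WT (0.71 ± 0.12, adjusted p = 0.0399). Hoxa9, a homeobox factor of stem cells, followed at 32.4 and 34.2 CPM in K9M and 20.2 and 22.8 CPM in WT without passing by edgeR (adjusted p = 0.0742). Mecom, a stem cell factor of the H3K9 methyltransferase list, had 12.5 and 11.3 CPM in K9M and 8.07 and 10.02 CPM in WT (adjusted p = 0.388). The list had 0 calls without K9M.1362 or without K9M.1363, and 0 with all 18 libraries in the fit. Sox4 alone was called without either K36M library and with the K9M and WT libraries alone.

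B lymphoid genes lay higher in K9M, with a wide spread between mice. Of 42 tested 1 rose, Sox4, which the stem cell list holds too, and none fell, while 35 had a log2 fold change above 0 and the median was 0.70. At an unadjusted p under 0.05, 21 were higher and 1 lower, beside 7.73% and 6.51% of all genes. Ebf1, a factor that commits cells to the B lineage, had 16.8 and 29.9 CPM in K9M and 8.397 and 3.17 CPM in WT (2.02 ± 0.55, adjusted p = 0.224). Dntt, the terminal transferase of early lymphocytes, had 172 and 395 CPM in K9M and 82.98 and 63.1 CPM in WT (1.96 ± 0.47, adjusted p = 0.224). Pax5, which keeps B cell identity, had 5.64 and 9.13 CPM in K9M and 3.24 and 1.104 CPM in WT (1.77 ± 0.49, adjusted p = 0.195). In these 3 K9M.1363 was highest and WT.1266 lowest, and over the list 29 genes were highest in K9M.1363. Vpreb1, part of the pre-B receptor, had 9.26 and 15.4 CPM in K9M and 5.58 and 2.21 CPM in WT, and Rag1, which cuts DNA for receptor assembly, 23.2 and 28.5 CPM in K9M and 11.54 and 2.67 CPM in WT. Ighm, the IgM heavy chain, did not follow, with 1143 and 546 CPM in K9M and 646 and 1311 CPM in WT. Cd22 and Ms4a1, both scarce, lay lower in both K9M mice than in both WT mice. Cd22 had 1.21 and 0.67 CPM in K9M and 3.19 and 1.79 CPM in WT (adjusted p = 0.195). Ms4a1 had 0.69 and 0.239 CPM in K9M and 0.797 and 0.736 CPM in WT (adjusted p = 0.585). DESeq2 called 6 of the list higher, limma-voom 1. Without WT.1262 edgeR called 14 higher, without K9M.1362 it called 2 and without K9M.1363 none.

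Erythroid genes lay lower in K9M, with a single WT library standing apart. Of 49 tested, Mt1 fell and none rose, 43 had a log2 fold change below 0 and the median was -0.67. WT.1266 was the highest of the 4 libraries in 44 of the 49. Gata1, the master factor of red cell genes, had 58.7 and 43.5 CPM in K9M and 56.7 and 94.6 CPM in WT (adjusted p = 0.454). WT.1262 lay within the K9M range. Without WT.1266 the list median was -0.10 with 1 call, and without WT.1262 it was -1.06 with 28 calls, all lower. Mt1, a metallothionein that binds zinc, had 43.01 and 35.9 CPM in K9M against 79.1 and 87.7 CPM in WT (-1.08 ± 0.11, adjusted p = 0.00543).

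Genes of mast cells, basophils and eosinophils lay lower in K9M without a call. Of 24 tested edgeR called 0. At an unadjusted p under 0.05, 10 were lower and 0 higher, beside 6.51% and 7.73% of all genes. In 21 the log2 fold change was below 0, and the median was -0.63. The 3 above 0 were Hdc, Mitf and Csf2rb2. DESeq2 called 5 lower and limma-voom 0. Mcpt8, a basophil protease, had 26.1 and 29.4 CPM in K9M and 70.8 and 48.3 CPM in WT (-1.10 ± 0.18) and came closest (adjusted p = 0.0515). Epx, the eosinophil peroxidase, had 82.7 and 63.2 CPM in K9M and 130.5 and 185 CPM in WT (adjusted p = 0.234), and Prg2, the major basic protein of eosinophils, 199.7 and 162 CPM in K9M and 283 and 362 CPM in WT (adjusted p = 0.434). In all 3 both K9M mice were under both WT mice. The median was -0.52 without WT.1266, -0.59 without WT.1262, -0.59 without K9M.1362 and -0.36 without K9M.1363.

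**Figure D4:**
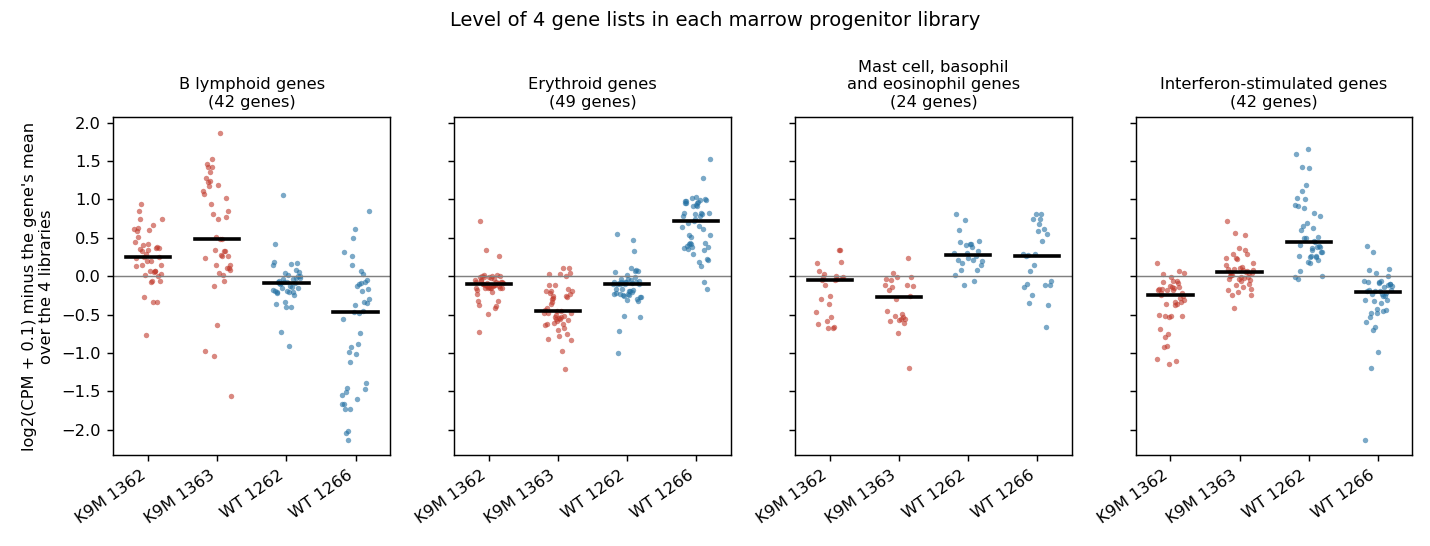
Level of 4 gene lists in each of 2 K9M and 2 WT libraries, as log2(CPM + 0.1) minus the gene's mean over the 4 libraries, with 1 point per gene and a black bar at the median. For erythroid genes the median was -0.10 and -0.46 in K9M and -0.10 and 0.71 in WT, so that WT.1266 stands apart, and for interferon-stimulated genes WT.1262 does.

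Interferon-stimulated genes likewise had a single WT library standing apart. Of 42 tested edgeR called 0, 36 had a log2 fold change below 0 and 3 were lower by unadjusted p under 0.05, with a median of -0.34, and DESeq2 called 1 lower and limma-voom 0. WT.1262 was the highest in 35 of them, and without it the median was 0.09.

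Other blood lineages had few calls. Of 39 granulocyte and neutrophil genes edgeR called 0, with 4 higher and 0 lower by unadjusted p under 0.05 and a median of 0.04. Mpo, the myeloperoxidase of granulocyte precursors, had 9307 and 9312 CPM in K9M and 10366 and 8334 CPM in WT. T, NK and innate lymphoid genes had 0 calls among 30 (median -0.09, 3 higher and 8 lower by unadjusted p under 0.05, beside 7.73% and 6.51% of all genes), and blood cytokine receptor genes 0 among 39 (median 0.06, 7 higher and 1 lower). Among 36 megakaryocyte and platelet genes Cd34 was the only call, with a median of -0.03 and 7 higher and 4 lower by unadjusted p under 0.05. Stromal, endothelial and bone cell genes had 0 calls among 17, with 3 each way by unadjusted p under 0.05.

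Genes of growth lay slightly under their WT level. Of 42 DNA replication genes edgeR called 0, yet 40 had a log2 fold change below 0, with a median of -0.13. By unadjusted p under 0.05, 14 of the 42 were lower, and over all genes 6.51% were. Cdc6, which loads the replicative helicase, had 112 and 117 CPM in K9M and 136 and 164 CPM in WT (adjusted p = 0.124). Of 40 mitosis genes 36 were below 0 and 11 lower by unadjusted p under 0.05, with 0 calls by edgeR and a median of -0.12, and Mki67, a marker of cycling cells, had 1212 and 1307 CPM in K9M and 1379 and 1393 CPM in WT. Of 58 genes of mitochondrial oxidative phosphorylation 55 were below 0 and 20 lower by unadjusted p under 0.05, with 0 calls and a median of -0.12. Of 25 heat shock and unfolded protein genes 23 were below 0, with 0 calls and a median of -0.25, 3 of them lower by unadjusted p under 0.05. WT.1266 was the highest of the K9M and WT libraries in 29 replication, 27 mitosis, 33 oxidative phosphorylation and 16 heat shock genes. The shifts of these lists are all small, and the genes of a list share their libraries, so the number of genes below 0 is no test.

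Further lists had few calls. p53 targets and CDK inhibitors had 0 calls among 32 (median 0.09, 5 higher and 2 lower by unadjusted p under 0.05). Imprinted genes had 0 among 24 (median -0.09, 1 higher and 4 lower), and cholesterol synthesis genes 0 among 24 (median -0.02, 1 higher and 0 lower). Of 28 immediate early genes Klf4 alone was called, with a median of 0.02. Only 2 genes known to be repressed by Setdb1 in other tissues were tested, and neither passed, with Fbp1, an enzyme of glucose synthesis, at 16.2 and 20.7 CPM in K9M and 11.8 and 8.74 CPM in WT (adjusted p = 0.131).

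**Figure D5:**
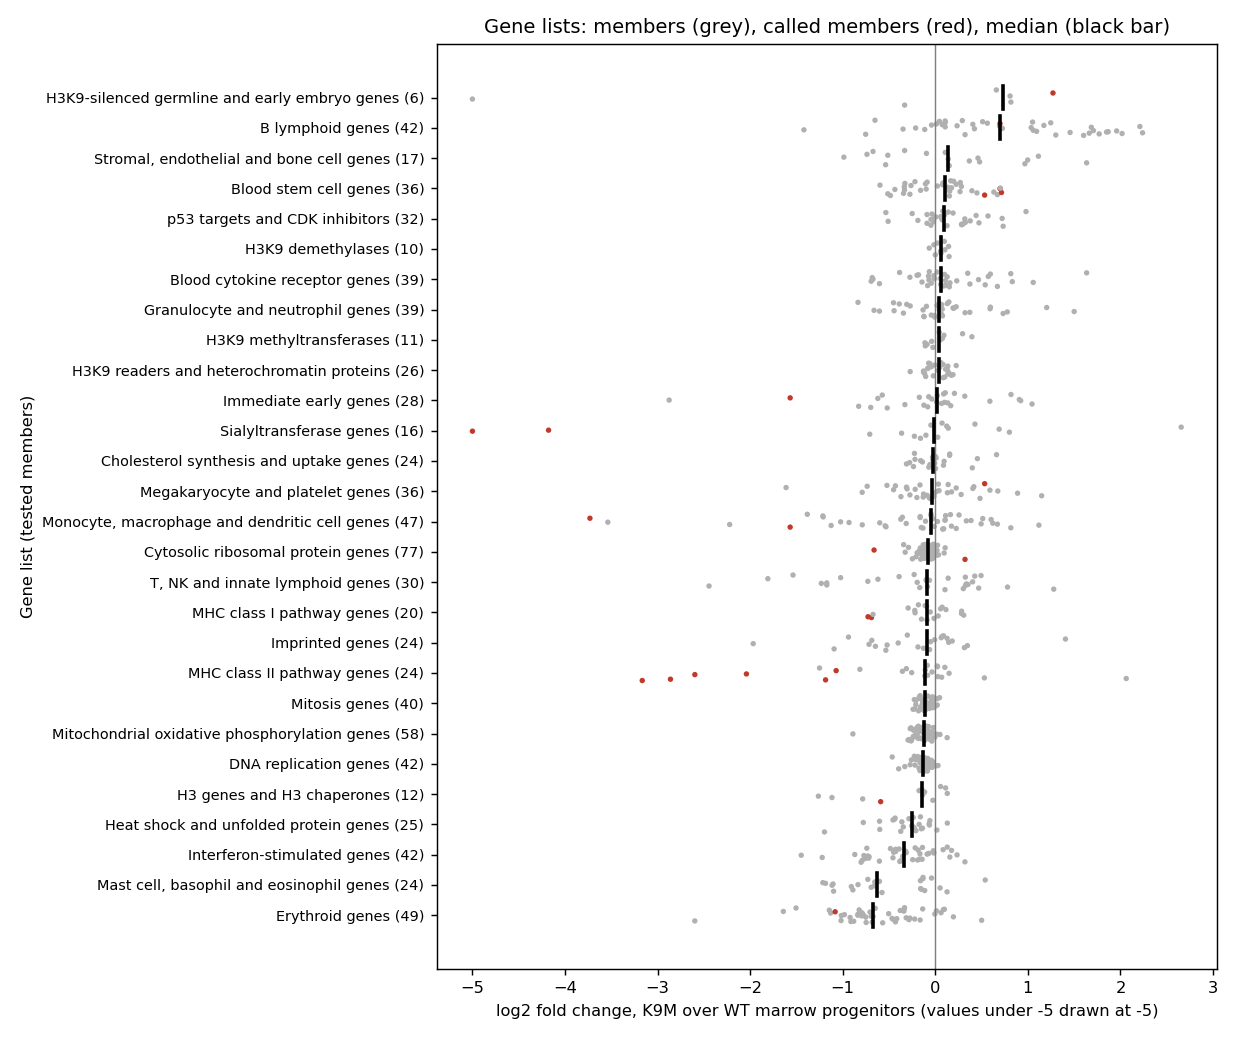
Log2 fold changes of K9M over WT for the tested members of 28 gene lists, with called members in red and the list's median as a black bar. Lists run from erythroid genes, at a median of -0.67, up to B lymphoid and germline genes, at 0.70 and 0.73. The germline median rests on the 6 members that passed the filter on low counts, from -6.46 to 1.27, and gives no support by itself. Called members are few in most lists, and most numerous among MHC class II genes, at 6 of 24.

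K36M progenitors shared the WT libraries with this comparison, so the K36M values of called genes are given side by side and not as agreement. H2-Aa had 3.82 and 2.72 CPM and Cd74 12.3 and 9.98 CPM in K36M, near the K9M level. Ifi30 had 83.7 and 87.1 CPM in K36M, above both K9M and WT. Sox4 had 18.9 and 17.7 CPM and Cd34 117 and 120.1 CPM in K36M, under both K9M and WT. Set directly against K36M, without the WT libraries entering the difference, 106 of the 147 genes differed between K9M and K36M, in a comparison in which 53.8% of all tested genes did. The same K9M libraries picked the 147 genes, so their share is no independent result.

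The effect of K9M in marrow was also set against its effect in the other tissues. Those tissues came from other mice, which were male, whereas Xist was high in the marrow libraries. Tissue, mouse and sex can thus not be told apart in these differences. The effects differed between marrow and intestine in 45 of 16785 genes (0.268%) and between marrow and testes in 46 of 20653 (0.223%), by the interaction term of edgeR's quasi-likelihood fit over 12 libraries. Class II genes fell in K9M intestine too, with H2-Aa at -3.80 ± 0.70 (adjusted p = 0.0329), H2-Eb1 at -3.75 ± 0.54 (adjusted p = 0.0126) and Cd74 at -4.31 ± 0.59 (adjusted p = 0.00987). Their difference of effect between marrow and intestine did not pass (adjusted p from 0.504 to 0.896). The WT intestine mice differed widely, H2-Aa standing at 139 and 83 counts in K9M and 2653 and 574 counts in WT. H2-DMa, flat in marrow, fell in K9M intestine by log2 -3.28 ± 0.42, and its effects in the 2 tissues differed (adjusted p = 0.0452). St6galnac2 fell in marrow only, at -0.18 ± 0.19 in intestine and -0.02 ± 0.13 in testes, with differences of effect that passed for both (adjusted p = 0.00737 and 1.01e-04). Ccnb1ip1, absent from WT marrow, was present in testes of both genotypes, with 186 and 180 counts in K9M and 122 and 173 in WT. In K9M intestine it had 17 counts in K9M.1516 and 0 in K9M.1519.

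Leaving out libraries changed the number of calls a great deal. Without K9M.1362 or K9M.1363 edgeR called 48 or 28 genes, without WT.1262 it called 619, and without WT.1266 it called 164. The class II list had 3 falls without K9M.1362 (Cd74, H2-Aa and Ifi30), 2 without K9M.1363 (H2-Aa and Ifi30), 6 without WT.1262 and 7 without WT.1266. With all 18 libraries in the fit only H2-Eb1 and Ifi30 of the 6 passed, so that Cd74, Ciita, H2-Aa and H2-Ab1 were lost, and with the K9M and WT libraries alone H2-Ab1 was lost. The p-values measure the spread between 2 mice per genotype, and the lone library of a group was assumed to vary like the others. The intervals and floors given for counts take in counting error alone.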

How the data were processed

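Per the labels, RNA of 18 libraries was made into cDNA with a kit that primes on polyA tails. The authors deposited raw read counts per Ensembl gene ID for each library, as whole numbers. STAR, HTSeq and the build mm9 are named in the submitters' processing notes. Their versions, the annotation and the strand setting are not given in the sources used here. Entries that name no gene were left out of totals and tests (reads with no feature, 10.2% to 13.4% in the K9M and WT marrow libraries, ambiguous reads, 2.40% to 2.64%, and reads without a unique alignment, 22.4% to 23.7%), and symbols came from GENCODE M21.

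The counts were tested in R 4.3.3 with edgeR 4.0.16 (filterByExpr, TMM, robust quasi-likelihood) over the 6 marrow libraries with 3 group means, which leaves 3 residual degrees of freedom, and with Benjamini-Hochberg adjustment at 0.05. The SE is the log2 fold change divided by the square root of F. Interaction terms were fitted over 12 libraries. DESeq2 1.42.0, limma-voom (limma 3.58.1), other scalings and filters, and leaving out each library were tried, and the script was tested on simulated data. Copies were aligned with BLASTN 2.17.0. Intervals are at 95% confidence.

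The members and gene lists were chosen with earlier results of these data known. Named genes were the 12 largest called changes each way, limited to genes with a symbol other than Gm or Rik, no overlap between the genotypes and an average log2 CPM from 1 upwards, 4 called members of each list with a call, 2 abundant members of each list without one, the members of 4 lists in full, H3f3a, H3f3b and Kit. Other genes named, among them Xist, Trim28, Itgax, Clec9a, Xcr1, Flt3, Tcf4, Siglech, Irf8, Pou6f1, Cela1, H2-K1, H2-D1, Ddx4, Sycp1, Tdrd5, St6galnac4, Gm11735, Hoxa9, Gata1, Mcpt8, Epx, Prg2, Mpo, Cdc6, Mki67, the parents of pseudogenes and the Zfp genes, were chosen after their values were seen unless that rule also names them. Nothing in the labels says whether the 2 libraries of a group were handled separately beyond coming from different mice.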

Additional observations from a re-analysis of the deposited data

Results flagged for a closer look

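A set of named genes had a K9M effect in marrow that differed from its effect in another tissue, by the interaction term of edgeR's quasi-likelihood fit over 12 libraries with Benjamini-Hochberg adjustment. Values are the log2 fold change of K9M over WT in marrow minus that in the other tissue ± SE, and a positive value means a higher effect in marrow. With testes, Ccnb1ip1 had 10.12 ± 1.29, with 122 and 173 counts in WT testes and 0 in WT marrow. Akr1c12 had 2.96 ± 0.32 with intestine and 4.16 ± 0.36 with testes. Camk2b had 3.28 ± 0.51, Rpl3-ps1 2.37 ± 0.34 and Zfp992 1.49 ± 0.23, all with testes. Pard3, a cell polarity gene with 0 counts in WT marrow, had 6.50 ± 0.71 with intestine and 6.68 ± 0.87 with testes.

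Below 0 were genes that fell in marrow and did not pass in the other tissue. St6galnac2 had -4.01 ± 0.35 with intestine and -4.16 ± 0.25 with testes, and Nags had -3.09 ± 0.40 with intestine and -3.68 ± 0.55 with testes. Fn1 had -3.64 ± 0.43, Tbc1d9 -2.54 ± 0.22, Mt1 -1.02 ± 0.17 and Gm11735 -9.32 ± 1.24, each with testes. Among pseudogenes, Atp6v0c-ps2 had -5.70 ± 0.64 with intestine, and Gm4737 had -5.76 ± 0.71 with intestine and -7.04 ± 0.999 with testes. H2-DMa had 3.29 ± 0.53 with intestine, with a fall in K9M intestine and overlapping levels in marrow. The tissues came from other mice than the marrow, so a difference between tissues and one between mice cannot be told apart. Sex is confounded with tissue as well. Xist was high in every marrow library, K36M included (2153 and 2349 CPM), whereas the mice that gave testes and intestine were male. Fitted values of genes at 0 in a group depend on the prior count.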

How the results depend on the processing

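The 147 calls of K9M against WT marrow (86 higher, 61 lower) became 339 with DESeq2 (196 higher, 143 lower), 463 with no filter on low counts (279 higher, 184 lower) and 46 at an adjusted p of 0.01 (23 higher, 23 lower), and with all 18 libraries in the fit 54 were higher. Leaving out each library in turn gave 28 to 619 calls, 12 to 294 higher and 16 to 325 lower. The 45 calls of the marrow against intestine difference became 310 with DESeq2 and 213 with no filter, and 0 to 85 without single libraries. The 46 of marrow against testes became 129 with DESeq2, 70 with no filter and 5 to 101 without single libraries. The cause was not tested. None of the 53 named calls changed direction under any setting run. That outcome was close to fixed beforehand and gives no support, since both K9M libraries lay beyond both WT libraries in all 147 called genes. Some list medians did change direction, mostly when a library was left out, among them interferon-stimulated genes (-0.34, 0.09 without WT.1262), MHC class I genes (-0.09, 0.06 without WT.1262), H3K9 methyltransferases (0.04, -0.07 without K9M.1363) and stromal genes (0.14, -0.27 without K9M.1363). Of 53 named calls, 36 were lost without K9M.1363 and 31 without K9M.1362, 1 without WT.1262, 8 without WT.1266, 12 or 13 without a K36M library, 20 with all 18 libraries (among them H2-Aa, Cd74, Sox4 and H3f3a) and 13 with the K9M and WT libraries alone (among them Fn1, H2-Ab1 and H3f3a). No paired analysis was possible because the K9M and WT marrow groups share no mouse number. Depth, 17114164 counts in the shallowest library, limits genes near 0.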
